A study of Homo sapiens with 6 samples.

Results

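Long non-coding RNAs (lncRNAs) with a high read count were followed in the human TNBC line MDA-MB-231 after treatment with SCH, an aqueous extract of Salvia chinensis Benth. The members were selected on 3 properties of the deposited tables, namely the biotype lincRNA (a lncRNA between protein-coding genes) or antisense (a lncRNA read from the strand opposite another gene), a mean raw count of at least 100 over the 6 samples, and a name outside the small nucleolar RNA host genes (SNHG genes, GAS5, ZFAS1, EPB41L4A-AS1 and DANCR). Of the 58735 genes in the table, 13212 had one of these biotypes. Of these, 16 were left out by name, 8 of them past the count, and 13040 of the rest lay below the count. This left 156 members, 85 lincRNA and 71 antisense genes. The biotype term lncRNA itself was used for 0 genes of the table.

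The design had 3 samples given vehicle and 3 given 100 mg/l of SCH over 24 h, all of 1 cell line, and the samples of a group are described as biological repeats. The total counts were 20291379, 18714240 and 18334857 in the vehicle-treated samples and 16836369, 17979434 and 18414924 in the SCH-treated samples. The libraries were made from RNA caught on poly-T beads, so transcripts without a poly(A) tail were captured poorly. Markers of a mesenchymal-like TNBC line were present, for example VIM with a mean count of 21731 and AXL with 22358. The luminal markers were mixed in level. The hormone receptor genes ESR1 and PGR had mean counts of 3.17 and 0.167 and CDH1 had 3.5. ERBB2 had 1457, EPCAM 266, GATA3 198 and FOXA1 122. Of the 7 markers of the line, 6 were lowered and 0 raised after SCH, and of 4 tested luminal markers 2 were raised and 2 lowered, where 29.3% of all tested genes were raised and 29.4% lowered. Markers of other cell types were low, with summed counts per sample of 22 to 60 for 5 immune, 81 to 162 for 4 fibroblast (DCN at 0) and 16 to 32 for 3 endothelial genes. Single markers moved, PTPRC from 39, 37 and 34 counts after vehicle to 4, 9 and 3 after SCH, and COL1A1 from 106, 80 and 85 to 147, 162 and 147. Both passed the test described below, and the part of other cell types in any result was not tested.

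LncRNAs are transcripts that are not translated into a known protein. Some build nuclear bodies (MALAT1 is found in nuclear speckles, NEAT1 is the scaffold of paraspeckles), some act as decoys for proteins (NORAD binds the Pumilio proteins), some are precursors of microRNAs, and many begin close to a protein-coding gene and are transcribed away from it. Many are unstable and are removed by the nuclear RNA exosome. Several members, among them LUCAT1, CYTOR, PVT1 and LINP1, have been studied in cancer cells.

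The sequences below are those to which the results return. Of the 156 members, 73 had an entry among the RefSeq promoter windows (GRCh38.p14), which run from 250 bases before to 50 bases after a start. The 4 windows shown are those of LUCAT1, one of the largest rises, of RASSF8-AS1, which rose with its divergent neighbour, of VPS9D1-AS1, which fell while its partner rose, and of MIR137HG, which fell with the gene that overlaps it. They are written 5′ to 3′ on the strand of the transcript. Capitals mark matches, on either strand, to 4 motifs, namely the AP-1 site TGANTCA, the core of the antioxidant response element TGACNNNGC, the GC box GGGCGG and the CCAAT box CCAAT.
LUCAT1 chr5:91314353-91314652: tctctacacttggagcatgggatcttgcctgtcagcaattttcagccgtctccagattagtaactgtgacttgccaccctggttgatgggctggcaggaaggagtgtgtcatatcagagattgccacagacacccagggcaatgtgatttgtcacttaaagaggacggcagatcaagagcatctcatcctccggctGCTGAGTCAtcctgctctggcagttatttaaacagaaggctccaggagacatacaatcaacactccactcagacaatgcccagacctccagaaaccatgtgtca
RASSF8-AS1 chr12:25959393-25959692: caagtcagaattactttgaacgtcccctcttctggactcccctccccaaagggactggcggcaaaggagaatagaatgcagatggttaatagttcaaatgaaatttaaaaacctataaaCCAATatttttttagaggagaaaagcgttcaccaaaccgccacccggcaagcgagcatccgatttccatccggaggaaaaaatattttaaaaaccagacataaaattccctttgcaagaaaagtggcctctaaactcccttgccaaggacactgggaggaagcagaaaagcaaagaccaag
VPS9D1-AS1 chr16:89711606-89711905: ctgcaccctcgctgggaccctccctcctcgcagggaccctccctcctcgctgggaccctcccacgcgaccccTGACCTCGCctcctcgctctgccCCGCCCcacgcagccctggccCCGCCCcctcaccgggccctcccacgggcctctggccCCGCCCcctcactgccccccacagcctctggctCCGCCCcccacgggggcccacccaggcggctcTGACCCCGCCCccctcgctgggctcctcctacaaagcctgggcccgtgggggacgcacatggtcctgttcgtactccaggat
MIR137HG chr1:98049644-98049943: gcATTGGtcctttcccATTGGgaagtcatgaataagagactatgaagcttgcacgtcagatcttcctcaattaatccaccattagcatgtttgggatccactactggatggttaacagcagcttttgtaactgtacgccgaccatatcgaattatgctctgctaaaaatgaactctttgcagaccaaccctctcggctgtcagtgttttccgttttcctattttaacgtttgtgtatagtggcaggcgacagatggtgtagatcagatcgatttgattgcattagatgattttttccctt

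In the LUCAT1 window, the 9 bases GCTGAGTCA, which begin 54 bases before the start, match the antioxidant response element core on the other strand, and the last 7 of them match the AP-1 site on the strand of the transcript, so these 2 matches overlap. In all 34796 different windows, the AP-1 site was found in 7.73%, the antioxidant response element core in 13.3%, the GC box in 44.9% and the CCAAT box in 34.6%. The VPS9D1-AS1 window held 5 GC boxes and 2 antioxidant response element cores, 1 of which overlaps a GC box, and its GC content was 75.7%. The RASSF8-AS1 window held 1 CCAAT box and the MIR137HG window held 2, with a GC content of 43.0% and 42.0%. The RefSeq start lay 145 bases from the start in the deposited table for LUCAT1, 323 for RASSF8-AS1 and 170 for MIR137HG, and at the same base for VPS9D1-AS1. A match of letters describes the window and is not a measured binding site.

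A second set shows what some of the lncRNAs carry. Of the members, 12 contain mature microRNAs of RefSeq on their own strand, 31 in all. The 9 shown are from hosts that changed, MIR137HG, MIR3142HG (miR-146a), MIR503HG, AC020916.1 (miR-23a, miR-27a and miR-24), MIR222HG (miR-221 and miR-222) and MIR22HG. Capitals mark the seed, bases 2 to 8, which largely sets the targets of a microRNA.
hsa-miR-137-3p: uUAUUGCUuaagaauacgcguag
hsa-miR-146a-5p: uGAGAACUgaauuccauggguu
hsa-miR-503-5p: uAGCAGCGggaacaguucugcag
hsa-miR-23a-3p: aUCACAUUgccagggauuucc
hsa-miR-27a-3p: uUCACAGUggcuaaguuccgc
hsa-miR-24-3p: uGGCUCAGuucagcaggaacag
hsa-miR-221-3p: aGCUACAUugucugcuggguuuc
hsa-miR-222-3p: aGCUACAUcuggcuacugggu
hsa-miR-22-3p: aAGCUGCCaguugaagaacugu

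Among the 31, miR-221-3p and miR-222-3p share a seed, as do miR-30a-5p and miR-30c-5p, whose host LINC00472 did not pass the test below.

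After SCH, 42 members rose, 54 fell and 60 did not pass the test (edgeR's quasi-likelihood test on the counts, TMM normalization, adjusted p under 0.05 by Benjamini-Hochberg over the 14736 genes tested). All 156 passed the filter on low counts. The 96 changed members are 61.5% of the list, beside 58.7% of all tested genes. The raised members are 26.9%, beside 29.3% of all tested genes, and the lowered members 34.6%, beside 29.4%, so the share of changed members was close to the background. The members' median log2 fold change was -0.068, beside -0.0034 over all tested genes and 0.014 over the 10232 protein-coding genes past the same count limit, of which 66.9% had changed. Of the 953 tested genes of the same biotypes below the count limit, 31.3% had changed, and the 8 genes left out by name past the count limit were all lowered. Over all biotypes and counts, 19 of 22 tested small nucleolar RNA host genes were lowered and 0 raised. In RNA from whole cultures, fewer cells in a given state and less RNA per cell cannot be told apart.

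In 102 members (65.4%, beside 62.4% of all tested genes), the values of the 2 groups did not overlap, and this held for 93 of the 96 that changed. The log2 fold changes ran from -1.74 to 1.68, with a median absolute value of 0.54 among the changed members and 0.46 among all changed genes. A log2 fold change of at least 1 was reached by 5 raised (3.21%) and 12 lowered members (7.69%), beside 3.89% and 4.88% of all tested genes. Of the lincRNAs, 21 rose (24.7%) and 32 fell (37.6%), with a median of -0.14. Of the antisense genes, 21 rose (29.6%) and 22 fell (31.0%), with a median of -0.014. Of all tested genes, 29.3% rose and 29.4% fell. Scaling by library size alone gave 55 raised and 48 lowered members, and over all genes 5519 raised and 3295 lowered in place of 4318 and 4332, so the balance of rises and falls depended on the scaling.

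**Figure D1:**
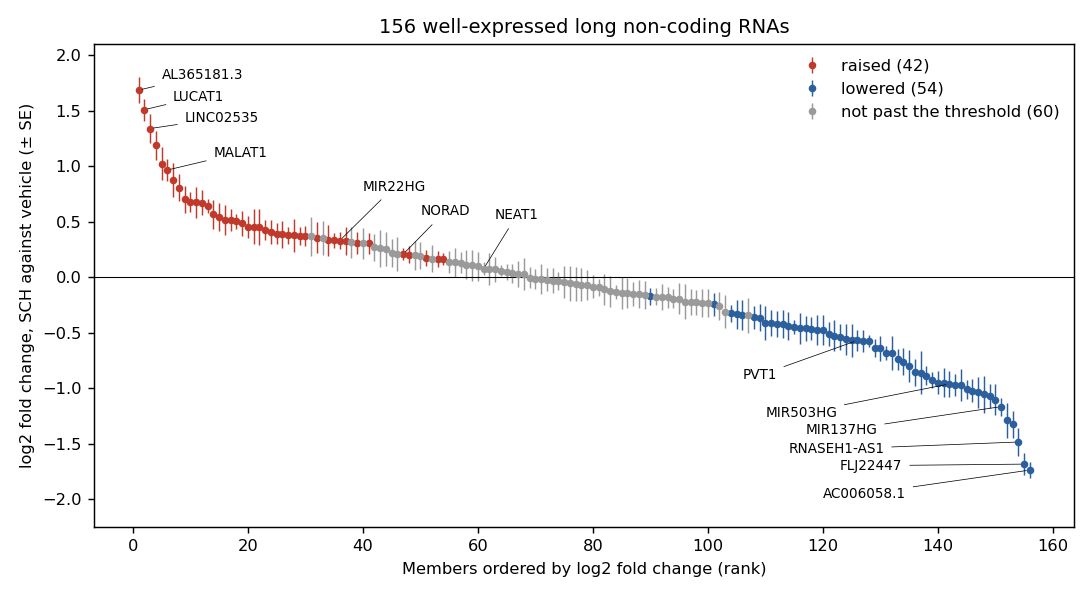
The plot of ordered changes gives the log2 fold change of each of the 156 members on the vertical axis, with bars of 1 standard error, by rank on the horizontal axis. The 42 raised members are red, the 54 lowered blue and the 60 that did not pass the test grey, with AL365181.3 highest (1.68) and AC006058.1 lowest (-1.74).

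The members near the limit of the selection were BX640514.2, LINC00665 and AC010761.1, each with a mean count of 100.33, just inside, and AC009948.1 with 98.0 and DBH-AS1 and AC080112.1 with 97.0, just outside. Their log2 fold changes lay between -0.26 and 0.25, and none of the 6 passed the test (adjusted p from 0.159 to 0.745, from edgeR). The median of the mean counts was 172 and the highest, that of NORAD, was 5711.

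The members together held 0.284%, 0.284% and 0.293% of the counts in the vehicle-treated samples and 0.298%, 0.297% and 0.300% in the SCH-treated samples. The groups did not overlap in this share, which is of the raw total counts and is not scaled by TMM. The TMM factors were 0.963, 0.961 and 0.971 in the vehicle-treated samples and 1.037, 1.038 and 1.034 in the SCH-treated samples. Divided by these factors, the shares lie higher after vehicle, so the direction depended on the scaling. NORAD alone gave 9.46% to 10.2% of the members' counts after vehicle and 11.0% to 12.5% after SCH.

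Levels were compared between genes as FPKM, which divides a count by the gene's exonic length. The member with the highest level was NORAD (ENSG00000260032), a lncRNA of 1 exon on chromosome 20 of GRCh38 from 36045622 to 36050960, which sequesters the Pumilio proteins. It had 50.6, 50.8 and 55.5 FPKM in the vehicle-treated samples and 65.4, 58.5 and 57.9 in the SCH-treated samples. All 3 SCH-treated samples were above all vehicle-treated samples. It rose by 0.20 on the log2 scale (standard error 0.054, adjusted p = 0.00215 from edgeR). PUM2, the gene of a protein that NORAD binds, fell by 0.14 on the log2 scale (adjusted p = 0.0307 from edgeR).

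Next in level came SFTA1P, a lincRNA annotated as a pseudogene-derived transcript, with 41.0, 38.5 and 40.6 FPKM after vehicle and 42.8, 44.0 and 48.4 after SCH (log2 fold change 0.16, adjusted p = 0.0493 from edgeR). Its groups lay close together without overlap, and it lost its call in 8 of its 15 alternative fits. LINC00973 had 34.3, 30.3 and 34.6 FPKM after vehicle and 42.0, 40.6 and 42.8 after SCH, again with the SCH-treated samples highest (0.33, adjusted p = 2.91e-04 from edgeR). AC099850.3 moved the other way, from 42.6, 46.8 and 49.2 FPKM to 23.8, 24.5 and 23.6 (-0.95, adjusted p = 5.22e-08 from edgeR). It is an antisense gene of 2 exons on chromosome 17, from 59202677 to 59203829, and 30.2% of its exonic bases lie in exons of another gene. It was the member with the largest change among the 10 of highest FPKM.

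The other 6 of these 10 had mean levels between 16.6 and 30.4 FPKM. AL441992.1, AC027307.2 and AL161431.1 rose (log2 fold changes 0.54, 0.37 and 0.16). AL513165.1 fell (-0.36), although its groups overlapped, with 29.5 FPKM in a vehicle-treated sample and 30.2 in an SCH-treated one. FGD5-AS1 (0.056, adjusted p = 0.351 from edgeR) and AC005288.1 (0.033, adjusted p = 0.754) did not pass the test.

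**Figure D2:**
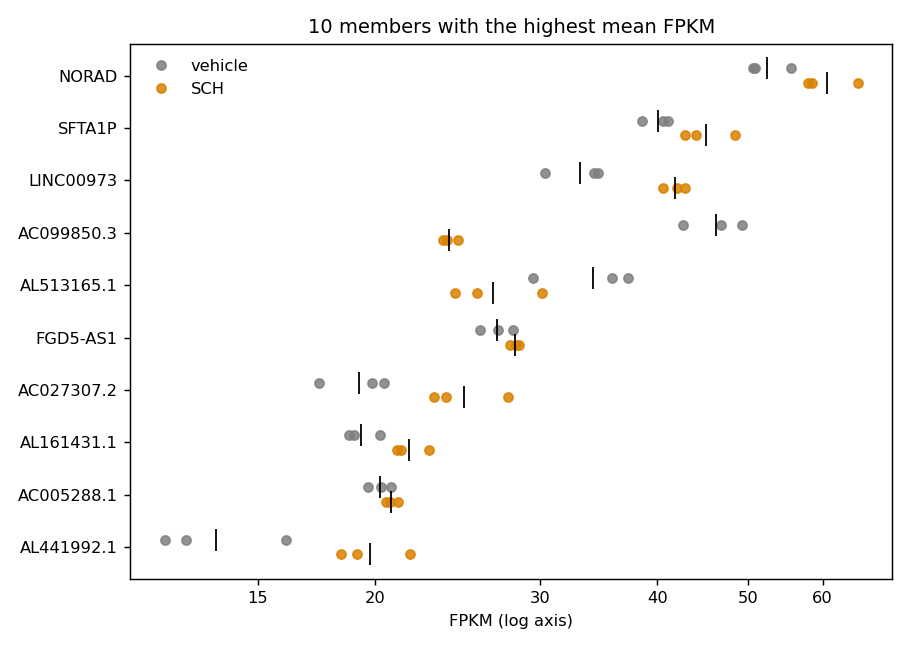
The plot of the most abundant members gives FPKM on a log axis for the 10 members with the highest mean, with 1 point a sample (vehicle grey, SCH orange) and a bar at each group's mean. NORAD leads with a mean of 56.5 FPKM, and AC099850.3 is the one whose SCH-treated samples (23.6 to 24.5) lie farthest below the vehicle-treated ones (42.6 to 49.2).

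MALAT1 and NEAT1 lie 52.1 kb apart on chromosome 11. MALAT1 and the long form of NEAT1 end in a triple helix in place of a poly(A) tail, so poly-T selection may catch only part of them. MALAT1 (ENSG00000251562, chromosome 11 from 65497688 to 65506516) had 76.6, 59.8 and 72.8 normalized CPM, read counts divided by the TMM-scaled library size, in the vehicle-treated samples and 116, 123 and 169 in the SCH-treated samples. The third SCH-treated sample was the highest, and the groups did not overlap. MALAT1 rose by 0.96 on the log2 scale (standard error 0.10, adjusted p = 1.61e-08 from edgeR), and 0.79 without SCH replicate 3. NEAT1 (ENSG00000245532, chromosome 11 from 65422774 to 65445540) had 89.8, 86.7 and 82.1 CPM after vehicle and 88.6, 97.6 and 86.1 after SCH. These groups overlapped, and the log2 fold change of 0.074 did not pass the test (standard error 0.059, adjusted p = 0.291 from edgeR). The difference between the 2 genes in response was not tested in itself. The ratio of their counts was 0.853, 0.690 and 0.887 in the vehicle-treated samples and 1.31, 1.26 and 1.96 in the SCH-treated samples.

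Of 36 tested genes for paraspeckle proteins, 1 was raised (2.78%) and 23 were lowered (63.9%), and the list's median on the log2 scale was -0.37. Of the protein-coding genes past the count limit, 34.7% were raised and 32.2% lowered. The core proteins are NONO, SFPQ and PSPC1. NONO had 368 ± 12.1 CPM after vehicle and 347 ± 7.71 after SCH (SD, n = 3 each) and did not pass the test (log2 fold change -0.083). SFPQ fell by 0.65 and PSPC1 fell by 0.50 on the log2 scale. The largest falls in this list were those of RBM3, a cold-inducible RNA-binding protein, and of DAZAP1, RBMX, RBM14 and RBM12, from -1.07 to -0.73, and RBM4B rose (0.23). Among 6 genes for partners of MALAT1 and NORAD, 5 were lowered (83.3%) and 0 raised. They include METTL16 (-0.42), which binds the triple helix at the end of MALAT1, ELAC2 (-0.30), which trims the small RNA released from the end of the MALAT1 precursor, and SAFB (-0.38).

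The nuclear RNA exosome and its adaptors degrade many lncRNAs. A list of RNA decay genes, which holds them and also DIS3L and XRN2, had 29 tested genes. Of these, 3 were raised (10.3%), 13 were lowered (44.8%) and 13 did not pass the test (median log2 fold change -0.13). The 55.2% that changed are fewer than the 66.9% of protein-coding genes past the count limit and close to the 58.7% of all tested genes. DIS3L, a catalytic subunit of the cytoplasmic form, fell by 0.99, and the core subunits EXOSC5, EXOSC7 and EXOSC8 fell by 0.96, 0.80 and 0.40. PABPN1, the nuclear poly(A)-binding protein, fell by 0.45. The core subunits EXOSC2, EXOSC4 and EXOSC9 also fell, EXOSC6 rose (0.15), and EXOSC1 (-0.14) and EXOSC3 (-0.094) did not pass the test. DIS3 (0.11), EXOSC10 (-0.13) and MTREX (-0.12), which are also in the list, did not pass the test either. NCBP2 and TENT4B rose, with log2 fold changes of 0.26 and 0.34.

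The largest rise was that of AL365181.3 (ENSG00000272405), an antisense gene of 1 exon on chromosome 1, from 156641666 to 156644887, whose start lies in an intron of BCAN, the gene of the matrix proteoglycan brevican. It had 6.05, 7.46 and 5.29 CPM after vehicle and 19.8, 21.2 and 19.5 after SCH. The lowest SCH-treated sample was above the highest vehicle-treated sample by more than the spread within either group. It rose by 1.68 on the log2 scale (standard error 0.11, adjusted p = 1.35e-11 from edgeR). BCAN itself, at 0.913 CPM after vehicle and 2.92 after SCH, had a log2 fold change of 1.69 (adjusted p = 1.66e-05). Since 10.2% of the exonic bases of AL365181.3 lie in exons of another gene and the kit did not mark strand, reads of the 2 genes cannot be fully told apart.

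LUCAT1 (ENSG00000248323), whose promoter is shown above and which is known as a transcript induced by the antioxidant factor NRF2, was second. It spans 260 kb of chromosome 5, from 91054834 to 91314547, and shares 0% of its exonic bases with other genes. It had 9.54, 9.58 and 7.65 CPM after vehicle and 24.5, 26.9 and 24.8 after SCH. All SCH-treated samples were high and close together. It rose by 1.51 on the log2 scale (standard error 0.099, adjusted p = 7.28e-12 from edgeR).

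LINC02535, on chromosome 6 from 85387219 to 85390186, had 3.79, 4.29 and 5.12 CPM after vehicle and 10.8, 10.8 and 11.7 after SCH (log2 fold change 1.34, adjusted p = 8.31e-09 from edgeR). AC009549.1, a gene of 1 exon that begins in an intron of NAV2 on the opposite strand, had 4.14, 2.88 and 3.03 FPKM after vehicle and 7.52, 7.45 and 8.12 after SCH (1.19, adjusted p = 4.14e-08 from edgeR). In both, the groups stood far apart. AC112907.3, which begins in an intron of the helicase gene EIF4A2, had 4.20, 4.51 and 3.77 CPM after vehicle and 9.86, 8.70 and 6.89 after SCH (1.02, adjusted p = 4.11e-06 from edgeR), with the SCH-treated samples more spread. RASSF8-AS1 and FEZF1-AS1 rose by 0.87 and 0.81 on the log2 scale and are taken up with their neighbours.

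The largest fall was that of AC006058.1 (ENSG00000261786), a lincRNA of 1 exon on chromosome 3, from 44117299 to 44122365. It had 76.7, 82.0 and 80.5 CPM after vehicle and 21.4, 22.8 and 27.3 after SCH. The groups lay far apart. It fell by 1.74 on the log2 scale (standard error 0.076, adjusted p = 5.8e-15 from edgeR), the smallest adjusted p of all members. FLJ22447, on chromosome 14 from 61570540 to 61658696, had 27.3, 30.7 and 31.2 CPM after vehicle and 8.60, 8.59 and 10.5 after SCH (-1.69, adjusted p = 8.61e-13 from edgeR). Of its exonic bases, 17.9% lie in exons of another gene. AL136985.3, a lincRNA spanning 55.7 kb of chromosome 1, had 11.5, 12.5 and 12.8 CPM after vehicle and 4.47, 4.88 and 5.26 after SCH (-1.33, adjusted p = 2.55e-09 from edgeR). The nearest protein-coding gene to AL136985.3 is JUN, a subunit of AP-1, which had a log2 fold change of 0.049 and did not pass the test.

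AC245041.2 fell by 1.29 on the log2 scale, with 9.18, 8.80 and 8.49 CPM after vehicle and 3.10, 3.06 and 4.63 after SCH. LINC01444 fell by 1.10, with 8.61, 8.86 and 8.77 CPM after vehicle and 3.61, 4.78 and 3.79 after SCH. Both were low after SCH in each sample, and both passed edgeR's test (adjusted p = 1.93e-07 and 4.45e-07). Chosen after their values were seen, LOXL1-AS1 (-1.02), LINP1 (-1.01), a lncRNA of non-homologous end joining, and MANCR (-0.93), named for its association with mitosis, also fell, and LINC00452 (0.67) rose.

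**Figure D3:**
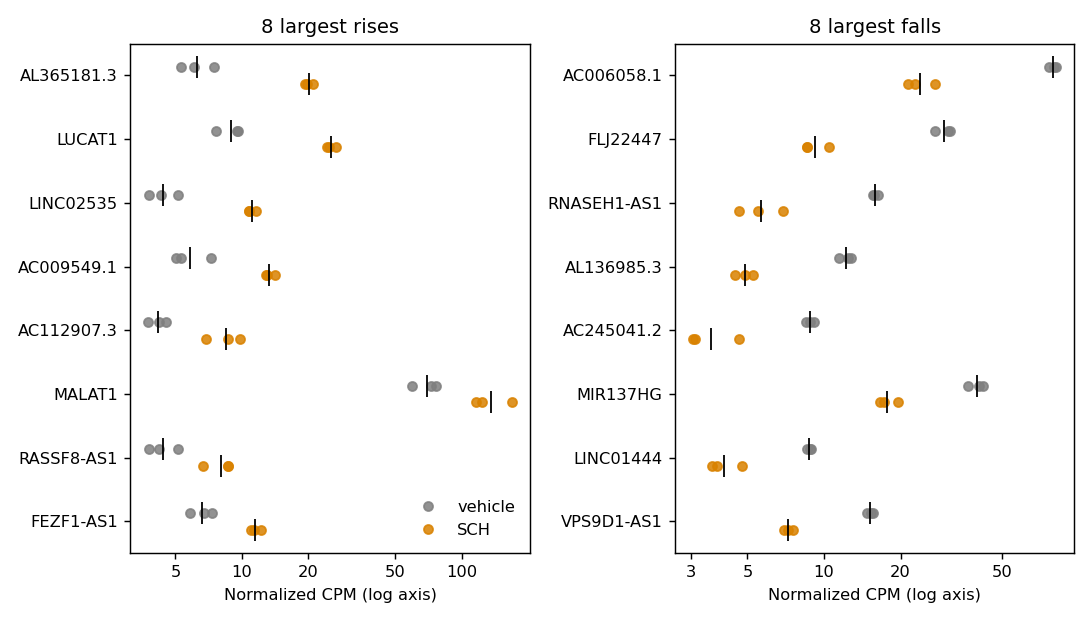
The plot of the largest changes gives normalized CPM on a log axis for the 8 largest rises (left) and the 8 largest falls (right), with 1 point a sample (vehicle grey, SCH orange) and a bar at each group's mean. These 16 members were picked for groups that do not overlap, and the means go from 6.27 to 20.1 CPM for AL365181.3 and from 79.8 to 23.8 for AC006058.1.

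Of 18 tested genes named as microRNA host genes, whatever their biotype or count, 1 was raised (5.56%, beside 29.3% of all tested genes) and 13 were lowered (72.2%, beside 29.4%), and the list's median on the log2 scale was -0.75. The difference from all genes was not tested. Of the 6 that are members, 1 rose and 5 fell. By position, 12 members held a mature microRNA of RefSeq on their own strand, of which 2 rose, 7 fell (58.3%) and 3 did not pass the test (median -0.45). MIR137HG, on chromosome 1 from 97933474 to 98049863, had 37.0, 40.6 and 42.2 CPM after vehicle and 19.5, 16.6 and 17.2 after SCH (log2 fold change -1.17, standard error 0.081, adjusted p = 2.1e-11 from edgeR). All its SCH-treated samples lay far below the lowest vehicle-treated sample. MIR3142HG, which holds miR-146a, had 10.7, 10.5 and 10.8 CPM after vehicle and 3.10, 5.74 and 6.41 after SCH (-1.06, adjusted p = 7.78e-06 from edgeR). The first SCH-treated sample was the lowest.

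MIR503HG had 13.9, 15.7 and 13.6 CPM after vehicle and 7.51, 8.05 and 6.57 after SCH (-0.96, adjusted p = 1.4e-07 from edgeR). AC020916.1, an antisense gene that holds miR-23a, miR-27a and miR-24-2 and was singled out after its values were seen, had 20.6, 17.6 and 19.1 CPM after vehicle and 9.17, 13.4 and 9.04 after SCH (-0.86, adjusted p = 1.96e-06 from edgeR). In both, the groups did not overlap. MIR222HG fell by 0.44, with 8.72, 11.2 and 11.0 CPM after vehicle and 7.17, 8.27 and 7.26 after SCH. MIR22HG was the 1 gene named as a host that rose, with 29.4, 30.5 and 27.3 CPM after vehicle and 33.4, 39.8 and 36.3 after SCH (0.33, adjusted p = 7.39e-04 from edgeR). CYTOR and MIR4435-2HG, near-identical copies on chromosome 2 that each carry a miR-4435 sequence, fell by 0.68 and 0.45, and reads of one cannot be assigned to it with certainty. The microRNAs themselves were not measured in these libraries.

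The lists of well-studied lncRNAs held few members. In the list of architectural and widely studied lncRNAs, 3 of 18 tested genes were raised (16.7%) and 5 lowered (27.8%), so that 44.4% had changed, beside 58.7% of all tested genes. Of 8 members in that list, 3 rose (NORAD, MALAT1 and LUCAT1), 3 fell (CYTOR, CRNDE and PVT1) and 2 did not pass the test (NEAT1 and HCG18). CRNDE was near the threshold (-0.17, adjusted p = 0.0451 from edgeR) and lost its call in 11 of its 15 alternative fits. Of the tested entries for lncRNAs linked to p53, to NF-kB and to hypoxia, 3 of 5, 2 of 3 and 1 of 4 were lowered and 0 raised. Of all tested genes, 29.4% were lowered and 29.3% raised. In the p53 list LINC-PINT is counted both as a lincRNA (-0.47, lowered) and as a processed transcript (0.35), which did not pass the test. The p53, NF-kB and hypoxia lists had 2, 2 and 1 members. Of these, PVT1, MIR3142HG and MIR222HG fell and NEAT1, in both the p53 and the hypoxia list, did not pass the test. Among the HOX cluster lncRNAs the one member was HAGLR (0.20, adjusted p = 0.0262 from edgeR), with 22.8, 22.6 and 23.7 CPM after vehicle and 25.5, 26.3 and 27.6 after SCH.

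The genomic span of the members, from the first to the last base of the gene, ran from 0.911 to 487 kb with a median of 9.91 kb. Of the 78 members of up to 10 kb, 21 rose and 24 fell (median log2 fold change -0.066). Of the 41 of 10 to 50 kb, 15 rose and 13 fell (median 0.056). Of the 28 of 50 to 200 kb, 4 rose and 12 fell (median -0.18), and of the 9 over 200 kb, 2 rose and 5 fell (median -0.41). Protein-coding genes of the same classes past the count limit had medians of -0.0022, 0.031, 0.036 and -0.25. Of the protein-coding genes of up to 10 kb, 33.5% rose and 34.6% fell, beside 26.9% and 30.8% of the members. In the class of 10 to 50 kb these shares were 36.4% and 30.1%, beside 36.6% and 31.7%. In the class of 50 to 200 kb, 36.6% of 3204 protein-coding genes rose and 28.8% fell, beside 14.3% and 42.9% of the members. Over 200 kb the protein-coding shares, 19.1% and 53.7%, lay close to the members' 22.2% and 55.6%. These shares are a description and were not tested against each other.

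With a single limit at 50 kb, the 37 longer members had a median of -0.19 (6 or 16.2% rose, 17 or 45.9% fell). The 119 shorter ones had a median of -0.044 (36 or 30.3% rose, 37 or 31.1% fell). The shorter members' median changed sign in some alternatives. It was 0.059 with library size only and 0.033 at a mean count of at least 200. It was 0.0079 without SCH replicate 2 and 0.0025 without SCH replicate 3. Of the protein-coding genes, 33.4% of the longer ones rose and 33.4% fell (median 0.0045), and 35.6% and 31.4% of the shorter ones (median 0.020). Among the longer members, the 22 lincRNAs had a median of -0.23 and the 15 antisense genes -0.036. With a limit at 20 kb the longer and the shorter members had medians of -0.061 and -0.068, and with a limit at 100 kb -0.21 and -0.066. The difference was thus seen at 50 and 100 kb but not at 20 kb, so it depended on the limit. Across the 156 members, which share the same 6 libraries, Spearman's rho of span and log2 fold change was -0.079, beside -0.063 across the protein-coding genes.

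The members over 200 kb did not all move one way. LUCAT1 (260 kb) rose by 1.51 on the log2 scale, and ENTPD1-AS1 (337 kb) had 8.87, 8.58 and 8.66 CPM after vehicle and 12.7, 12.7 and 11.1 after SCH (0.48, adjusted p = 5.66e-04 from edgeR). SUCLG2-AS1 (293 kb) had 9.69, 8.19 and 9.95 CPM after vehicle and 5.62, 4.46 and 4.15 after SCH (-0.97, adjusted p = 3.04e-06 from edgeR). The groups of each stood apart. PVT1 (307 kb), MIR4435-2HG (487 kb) and FLG-AS1 (277 kb) fell by 0.57, 0.45 and 0.48. AC010343.3 (372 kb, 0.30, adjusted p = 0.0637) and UBA6-AS1 (380 kb, 0.11, adjusted p = 0.532) did not pass edgeR's test.

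**Figure D4:**
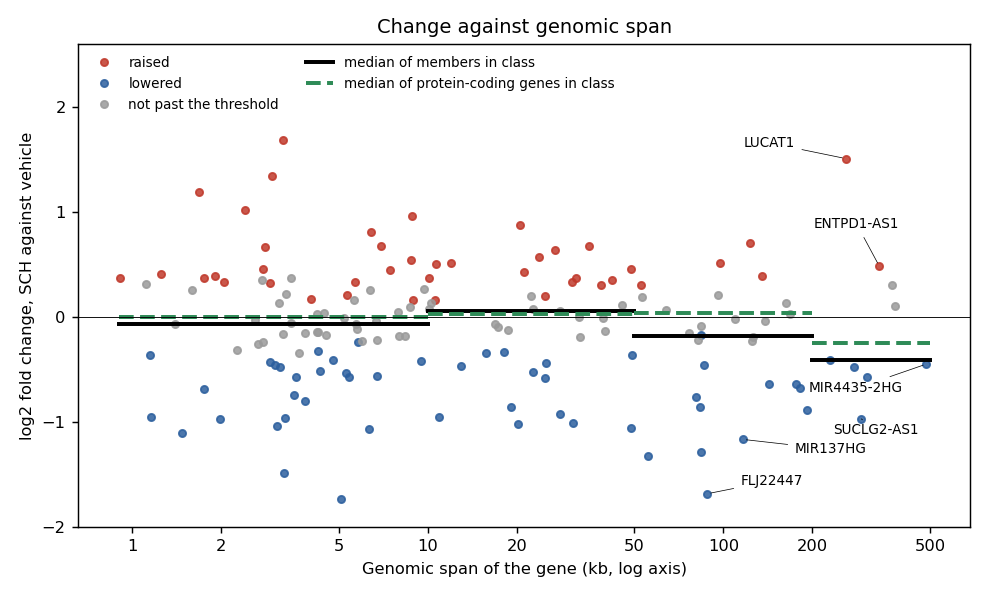
The plot of span gives the log2 fold change of the 156 members (vertical axis) against their genomic span in kb (horizontal log axis), red for raised, blue for lowered and grey for those that did not pass the test. Black lines mark the members' medians in 4 classes of span (-0.066, 0.056, -0.18 and -0.41) and dashed green lines those of protein-coding genes (-0.0022, 0.031, 0.036 and -0.25).

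Each member was set beside 1 protein-coding gene. In 58 members the neighbour was divergent, that is, on the other strand, head to head and with starts within 2 kb. This class was assigned first and includes overlapping genes, such as AC112907.3 with EIF4A2 and RASSF8-AS1 with RASSF8. Of the other members, 42 overlapped the neighbour on the opposite strand, 4 on the same strand, and 52 were separate from it. Since the kit did not mark strand, reads from exonic bases that 2 genes share cannot be told apart. The divergent members had a median log2 fold change of -0.015 (18 rose, 16 fell), the antisense ones -0.11 (11 rose, 17 fell) and the separate ones -0.11 (13 rose, 18 fell). The shares raised and lowered were 31.0% and 27.6% of the divergent, 26.2% and 40.5% of the antisense and 25% and 34.6% of the separate members, beside 29.3% and 29.4% of all tested genes.

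The log2 fold changes of the 58 divergent pairs had a Pearson's r of 0.23 and a Spearman's rho of 0.16. These pairs share the same libraries. In the 21 of them whose lncRNA shares no exonic base with another gene, r was 0.40 and rho 0.36. In 22 pairs both genes had changed, in 6 both rose, in 7 both fell and in 9 they moved in opposite directions, so that 59.1% moved together. Among 879 divergent pairs of protein-coding genes past the count limit, r was 0.15 and 58.6% of 384 pairs in which both had changed moved together. The value moved with the count limit, to 0.42 when the limit was lowered to 50 and to -0.051 when it was 200, where fewer pairs remain, and the cause was not tested. In the 36 antisense pairs with a tested partner, r was 0.066 and rho -0.21, but r was -0.035 without the pair of TMEM132D-AS1, whose partner TMEM132D had no count in any SCH-treated sample, and 5 of 15 pairs in which both had changed moved together.

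In several divergent pairs both genes fell. RNASEH1-AS1 (ENSG00000234171, chromosome 2 from 3558492 to 3561745) starts 124 bases from the start of RNASEH1, the gene of an enzyme that removes RNA from RNA-DNA hybrids. It had 15.7, 15.7 and 16.4 CPM after vehicle and 5.50, 4.62 and 6.89 after SCH (log2 fold change -1.49, standard error 0.12, adjusted p = 5.12e-10 from edgeR). RNASEH1 went from a mean of 20.5 to 11.9 CPM (-0.79, adjusted p = 1e-07 from edgeR). The antisense gene moved further than its partner, and 10.3% of its exonic bases lie in exons of another gene.

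SUCLG2-AS1 starts 83 bases from SUCLG2, which encodes a subunit of succinyl-CoA ligase and had a mean of 92.1 CPM after vehicle and 44.1 after SCH (-1.06, standard error 0.057). AC010735.2 had 9.38, 9.69 and 8.83 CPM after vehicle and 4.30, 4.94 and 5.15 after SCH (-0.95), and IRS1, the gene of an insulin receptor substrate, fell by 0.86. In SUCLG2-AS1 and AC010735.2, 0% of the exonic bases lie in exons of another gene, and both members and both partners passed edgeR's test.

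In other pairs both genes rose, or the directions differed. RASSF8-AS1 (its promoter window is shown above) had 4.20, 3.79 and 5.12 CPM after vehicle and 8.66, 8.70 and 6.68 after SCH (log2 fold change 0.87, adjusted p = 3.41e-05 from edgeR), and RASSF8, whose start is 736 bases away, rose by 0.55. HAGLR and the homeobox gene HOXD1 both rose, by 0.20 and 1.42, although HOXD1 was low (1.31 CPM after vehicle and 3.51 after SCH). Of the exonic bases of HAGLR, 13.8% lie in exons of another gene. CRNDE fell by 0.17 while the homeobox gene IRX5 rose by 0.81. UBA6-AS1 and AC112907.3 had partners, UBA6 and EIF4A2, with log2 fold changes of 0.15 and 0.048.

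Among the antisense pairs, VPS9D1-AS1 (ENSG00000261373, chromosome 16 from 89711856 to 89718165) had 14.7, 15.3 and 15.6 CPM after vehicle and 7.22, 7.57 and 6.94 after SCH (log2 fold change -1.07, standard error 0.11, adjusted p = 7.34e-09 from edgeR), while VPS9D1 rose by 0.49. Its start lies in an intron of VPS9D1, and 29.5% of its exonic bases lie in exons of another gene. FEZF1-AS1 had 5.79, 6.74 and 7.31 CPM after vehicle and 11.1, 12.2 and 11.4 after SCH (0.81), and FEZF1, a zinc finger gene that it overlaps, rose by 0.92. Of the exonic bases of FEZF1-AS1, 18.4% lie in exons of another gene. NAV2, which holds AC009549.1, fell by 0.44 while AC009549.1 rose. AC020916.1 fell by 0.86 while ZSWIM4 on the other strand rose by 1.55.

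On the same strand, MIR137HG overlaps DPYD, the gene of the enzyme that begins pyrimidine breakdown, and DPYD fell by 1.46, from a mean of 55.7 to 20.2 CPM. Of the exonic bases of MIR137HG, 9.84% lie in exons of another gene. PVT1 lies 53099 bases beyond MYC, and the 2 genes fell by 0.57 and 0.69. SFTA1P (0.16) lies 3417 bases from CELF2, which fell by 2.49. LINC02535 rose and NT5E, 59.4 kb away, fell by 0.59. LINC00973 (0.33) and DCBLD2 (-0.37) likewise differed in sign.

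**Figure D5:**
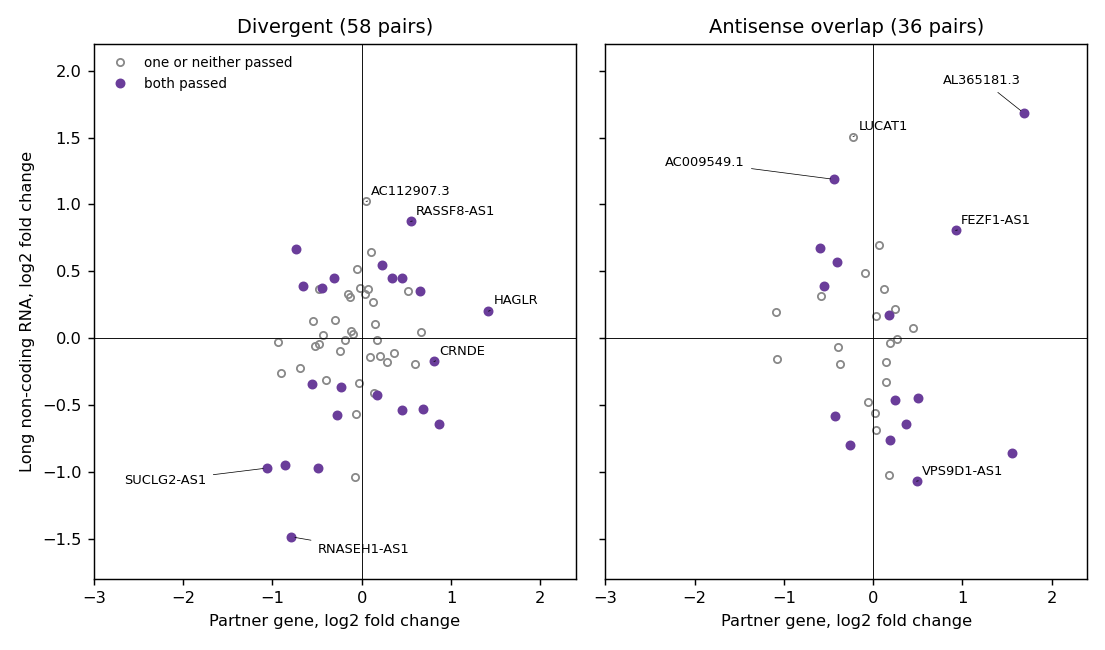
The plot of pairs gives the log2 fold change of the lncRNA (vertical axis) against that of its protein-coding partner (horizontal axis) for 58 divergent (left) and 36 antisense (right) pairs, filled where both passed the test. The points spread over all 4 quadrants (r = 0.23 and 0.066), and the pair of TMEM132D-AS1 (-0.34), whose partner had no count after SCH, lies off the axis.

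The counting could affect some members. The gene body of 87 members overlaps a protein-coding gene, 60 members share no exonic base with another gene and 19 share at least 25%, most of all ABALON with 74.8%, which lies in BCL2L1. Among the 60 without shared bases, 18 rose (30%) and 19 fell (31.7%), with a median of -0.068. Among the 69 whose body overlaps no protein-coding gene, 16 rose (23.2%) and 25 fell (36.2%), with a median of -0.13, beside 29.3% and 29.4% of all tested genes. The part of overlapping reads in any single change was not tested.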

How the data were processed

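RNA was measured by poly-T-selected sequencing in 3 vehicle-treated and 3 SCH-treated samples of MDA-MB-231 cells. The submitters' processing notes name CASAVA 1.8, HISAT2 2.0.5, featureCounts 1.5.0-p3, DESeq2 1.20.0 and GRCh38. The authors deposited a matrix of raw read counts and, per sample, FPKM values (scaled by exonic length and library size) with biotype and position. The kit did not mark strand, and whether the counting used strand is not given in the sources used here. All 58735 gene positions matched GENCODE 29, which gave exons and overlaps.

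From the deposited counts, genes were kept by filterByExpr and tested with edgeR 4.0.16 (TMM, quasi-likelihood test, SCH against vehicle) in R 4.3.3, with Benjamini-Hochberg adjustment over all 14736 tested genes at 0.05. CPM values were scaled by TMM. Total counts of 16836369 to 20291379 limit the precision for the least abundant members. The steps were tested on simulated data. Alternatives were other scalings and filters, DESeq2 1.42.0, limma 3.58.1 on log2(FPKM + 1) and log2(FPKM + 0.1), a replicate block, 1 sample left out at a time, other count, span and distance limits, and members outside protein-coding genes.

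The members and lists were chosen with earlier results of these data known. Named genes are the 10 members highest in FPKM, the 8 largest rises and 8 largest falls without overlap of the groups, and members of the lists. They also include genes at the count limit and the 8 most abundant members over 200 kb. Of the divergent and antisense pairs in which both genes changed, the 8 with the largest change of the lncRNA were taken. The partners of these members and up to 5 changed genes of each protein list are named too. Other genes, among them NONO, SFPQ, PSPC1, RBM4B, NCBP2, TENT4B, EXOSC6, PTPRC, COL1A1, ABALON and TMEM132D, were chosen after their values were seen. Differences between list members were described by counts and medians. Motif matches and mature microRNAs come from RefSeq tables of GRCh38.p14. Some genes that this rule selects are not reported here.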

Additional observations from a re-analysis of the deposited data

How the results depend on the processing

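Of the 118 values computed for the counts, medians and the divergent correlation under alternatives, 93 moved by less than the spread between replicates (for counts, by under 1.5 times). With library size only, the median of all genes rose to 0.099, the members' median was 0.035, that of members of at least 50 kb -0.092 and that of shorter ones 0.059. Upper-quartile scaling put the shorter ones at -0.076. On log2(FPKM + 1) the longer members' median was -0.12 and the divergent r 0.29. Spearman's rho in place of r, on the counts, was 0.16. A log2 fold change of at least 1 left 5 raised and 12 lowered members, and 573 raised and 719 lowered of all 14736 tested genes. Without members whose body overlaps a protein-coding gene, 16 were raised and 25 lowered, with medians of -0.13 and, for shorter ones, -0.11. A span limit of 20 kb gave -0.061 for longer and -0.068 for shorter members, and 100 kb gave -0.21 for longer and -0.066 for shorter ones. A mean count of at least 50 (305 genes) gave 68 raised, 95 lowered and r of 0.42, and at least 200 (66 genes) gave 22 raised, 25 lowered, a median of 0.033 for shorter members and r of -0.051. The last counts follow from the number of genes, and the cause of the other changes was not tested.

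With 1 sample left out, 34 to 39 members were raised and 50 to 52 lowered, the median lay between -0.097 and -0.042, that of longer members between -0.24 and -0.16, that of shorter ones between -0.054 and 0.0079 (0.0079 without SCH replicate 2, 0.0025 without SCH replicate 3), and r between 0.22 and 0.24. With the replicate number as a block, 43 were raised and 54 lowered and the median was -0.071. Same-numbered samples did not deviate together (correlations 0.046, -0.022 and 0.022), and differently numbered ones had correlations from -0.084 to 0.066. No shared effect of the number was seen, but such values cannot show whether the samples were paired.

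Of 915 values for 61 named genes, 866 kept direction and call, 39 lost the call and 8 gained it. AC010761.1, which did not pass the test, changed sign with library size only (0.039) and without vehicle replicate 2 (0.10), and lay between -0.15 and 0.10 with 1 sample left out. The antisense r became -0.035 without the pair of TMEM132D-AS1, an alternative chosen after seeing the data. Over all alternatives LUCAT1 lay between 0.71 and 1.61, ENTPD1-AS1 between 0.22 and 0.59, FLG-AS1 between -0.56 and -0.21, RASSF8-AS1 between 0.52 and 1.00 and AL136985.3 between -1.38 and -0.81, and CRNDE and PUM2 reached -0.072 and -0.042. The smallest p of an exact permutation test of 3 against 3 samples is 0.1, so single values were not tested that way.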

Other observations

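Of 68 tested lncRNAs of other biotypes with a mean count of at least 100, 12 rose and 25 fell (median log2 fold change -0.11). Without the genes that the selection leaves out by name, 12 of 59 rose and 17 fell (median -0.052). The shares that changed, 54.4% and 49.2%, were below the 58.7% of all tested genes. AC006058.4, of the class of transcripts still to be experimentally checked, overlaps AC006058.1 on the opposite strand and went from 27.0 ± 1.31 to 9.43 ± 1.11 CPM (SD, n = 3 each, log2 fold change -1.52, adjusted p = 3.91e-12 from edgeR), so that reads of the largest fall among the members and of this gene cannot be fully told apart. SLC9A3-AS1 went from 7.05 ± 0.893 to 19.4 ± 3.14 CPM (1.46), and LINC00205, transcribed from a bidirectional promoter, from 23.1 ± 0.789 to 36.2 ± 3.36 CPM (0.65).

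Among lincRNA and antisense genes with mean counts from 50 to 100, LINC00324 (1.59), LINC02454 (1.52), RAET1E-AS1 (1.23) and AL365181.2 (1.20) had the largest rises. KRT7-AS (-2.24), LINC02009 (-2.04), LINC01111 (-1.89) and HIF1A-AS2 (-1.61), a lncRNA antisense to the hypoxia factor gene HIF1A, had the largest falls. KRT7-AS, at the locus of a keratin gene, went from 5.16 ± 0.278 to 1.09 ± 0.314 CPM. These genes were chosen after their values were seen.

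Among processed transcripts, a biotype outside the selection, MIR17HG, the host of the miR-17 to miR-92a cluster, fell by 1.59 on the log2 scale at a mean count of 31.7, and MIR100HG fell by 0.52 at a mean count of 644. Both were chosen after their values were seen.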
